A study of Mus musculus with 12 samples.

Results

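The genes described here encode the alpha1 subunits of voltage-gated calcium channels. They are Cacna1a, Cacna1b, Cacna1c, Cacna1d, Cacna1e, Cacna1g, Cacna1h and Cacna1i, taken by symbol from the expression tables, and they make up 8 of the 54735 gene symbols listed for each library. All 8 symbols were present in all 12 tables. The remaining alpha1 genes, Cacna1f and Cacna1s, encode the main channels of photoreceptors and skeletal muscle. They stood at 0.129 TPM or lower in every embryo, with single embryos listed at 0. TPM is transcript abundance corrected for gene length and scaled to a sum of 1000000 per library, so levels may be compared between genes.

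RNA was sequenced from the pallium, the dorsal telencephalon that forms the cerebral cortex, of 12 mouse embryos of the C57/Bl6 strain at E13.5, with 4 embryos per group. Control embryos were Rnu11wt/flx::Trp53wt/wt::Emx1-Cre+, cKO embryos were Rnu11flx/flx::Trp53wt/wt::Emx1-Cre+, and dKO embryos were Rnu11flx/flx::Trp53flx/flx::Emx1-Cre+. Rnu11 encodes the U11 small nuclear RNA, which recognises the 5′ splice site of minor introns, and Trp53 encodes p53. Emx1-Cre was carried by all groups, so control embryos could also lose their 1 floxed Rnu11 allele. Emx1-Cre acts in progenitors of the pallium, and cells that come from elsewhere, such as vessel cells, microglia and migrating interneurons, keep both genes. Replicates were separate embryos, and the labels do not say which were littermates.

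An alpha1 subunit forms the pore, the voltage sensor and the selectivity filter of a calcium channel. Channels of the Cav1 and Cav2 classes open at strong depolarization and need a beta and an alpha2delta subunit to reach the membrane, whereas the Cav3 class opens at weak depolarization and works without them. Cav1 channels couple electrical activity to gene expression, Cav2 channels trigger transmitter release at synapses, and Cav3 channels shape firing near rest. Alpha1 genes are known for carrying minor introns in many members, which is why the family was set against loss of U11. Minor introns were not identified here, because genome sequence was not used, and splicing itself was not measured in these gene-level values.

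The promoters are shown first, and a link between them and the changes of the members was not tested. RefSeq (GRCm38.p6) listed a promoter for 5 of the 8 members, 8 promoters in all, and the 250 bases before each start were searched on both strands. The sequence of Cacna1e, the member with the largest change between dKO and cKO, covers chr1:154725921-154726170 on the minus strand and holds no match to any motif searched. It belongs to a start inside the gene, whose annotated 5′ end lies at 154884501, and the bases before that end were not searched. Cacna1b covers chr2:24763153-24763402 on the minus strand, and capitals mark GGGCGG, the box bound by Sp1 and related factors. The first of 3 Cacna1c promoters covers chr6:119196410-119196659 on the minus strand, and capitals there mark a match to a p53 half-site, which begins 95 bases before the start. All are written 5′ to 3′ on the strand of the gene.
Cacna1e: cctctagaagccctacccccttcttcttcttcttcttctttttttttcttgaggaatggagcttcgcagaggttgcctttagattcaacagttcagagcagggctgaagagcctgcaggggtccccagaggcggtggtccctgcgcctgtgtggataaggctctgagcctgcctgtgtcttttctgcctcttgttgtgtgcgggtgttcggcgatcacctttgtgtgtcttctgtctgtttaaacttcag
Cacna1b: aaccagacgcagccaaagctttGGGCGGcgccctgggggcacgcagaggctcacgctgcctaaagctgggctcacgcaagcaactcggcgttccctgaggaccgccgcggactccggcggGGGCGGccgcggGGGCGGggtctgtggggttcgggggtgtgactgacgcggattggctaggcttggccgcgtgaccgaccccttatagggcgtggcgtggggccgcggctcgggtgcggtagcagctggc
Cacna1c: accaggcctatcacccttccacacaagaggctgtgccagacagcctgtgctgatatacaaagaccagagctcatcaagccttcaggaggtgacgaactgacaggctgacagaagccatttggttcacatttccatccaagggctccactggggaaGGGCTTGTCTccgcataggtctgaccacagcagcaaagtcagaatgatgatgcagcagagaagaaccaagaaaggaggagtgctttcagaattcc
The motif GGGCGG occurred 3 times upstream of Cacna1b and not in the Cacna1e sequence. Among promoters not printed, it occurred 6 times at the second Cacna1c start, with a GC content of 82.8%, and 5 times at a Cacna1d start of 86.4% GC, while another Cacna1d start held TATAAA 3 times. It was found in 32.7% of the 32851 mouse promoters of this length. The p53 half-site matched only the first Cacna1c promoter among the 8, and 7.13% of all promoters held such a match. The E-box CANNTG, bound by basic helix-loop-helix factors, was present in Cacna1b and Cacna1c as printed and absent from Cacna1e, against 66.2% of all promoters. TATAAA, found in 12.4% of all promoters, and TTCAGCACC, the left part of the REST site, found in 0.301%, were in none of the sequences printed. GC content was 72% for Cacna1b, 52% for Cacna1e and 51.6% for the first Cacna1c promoter, beside a median of 52.4% over all promoters. These matches describe letters in a window, and binding was not measured.

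In control embryos Rnu11 ranged from 521 to 724 TPM, against 115 to 159 TPM for cKO and 142 to 199 TPM for dKO, and its mutant groups did not overlap control (exact two-sided permutation p = 0.0286 for each, the smallest that 4 against 4 embryos allow). Trp53 stood at 0.92 to 1.49 TPM in dKO, below the 2.63 to 6.37 of control and the 3.92 to 4.83 of cKO (exact permutation p = 0.0286 for each). Because TPM carries no read numbers, the depth behind these values is unknown, and they have no counting interval. Protein-coding genes took 14.4% to 20.0% of the TPM of a library, the highest share in embryo 4 of cKO. The median of the 11764 genes tested (mean of at least 1 TPM) was 0.25 higher on the log2(TPM + 1) scale in cKO than in control and 0.26 lower in dKO than in cKO. The main test results below are therefore given as deposited and after median-ratio rescaling. That rescaling multiplied each library by 1 factor so that this median shift was removed. TPM values, their sums and ratios of means are as deposited unless stated.

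**Figure D1:**
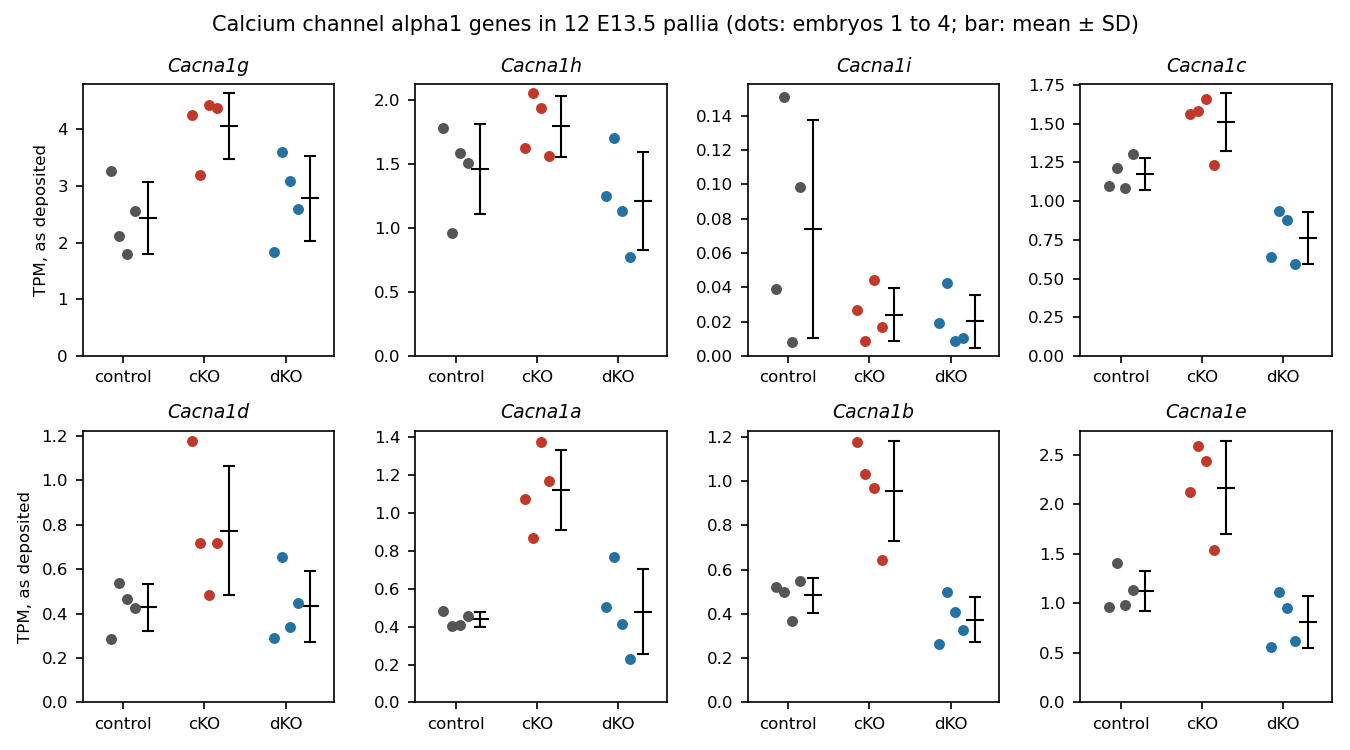
TPM as deposited (vertical axes, linear and starting at 0) of the 8 alpha1 genes in control, cKO and dKO embryos; each dot is 1 embryo and the bar gives the mean ± SD of 4. Cacna1a, Cacna1b and Cacna1e sit higher in every cKO embryo than in any control embryo, and Cacna1c sits lower in every dKO embryo than in any other.

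All 8 alpha1 genes were of modest or low abundance at this stage. Together they reached 6.70 to 8.43 TPM per control embryo, 11.2 to 13.3 TPM per cKO embryo and 5.35 to 9.31 TPM per dKO embryo. In control the order of mean levels ran Cacna1g, Cacna1h, Cacna1c, Cacna1e, Cacna1b, Cacna1a, Cacna1d and Cacna1i. Neighbours in that order differed beyond the range of the embryos at 3 steps: Cacna1g above Cacna1h, Cacna1e above Cacna1b, and Cacna1d above Cacna1i. The other neighbours overlapped. Cacna1g exceeded 67.1% of the 21870 protein-coding genes in control and Cacna1i exceeded 36.4%. In cKO, Cacna1e took the second place and Cacna1a the fifth, and in both mutants only Cacna1g and Cacna1i were separated from their neighbours.

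In cKO, where U11 is lost and p53 is intact, the R-type gene Cacna1e and the T-type gene Cacna1g were higher than in control, with means 1.93 and 1.67 times those of control, and so were the scarcer synaptic channel genes Cacna1a and Cacna1b, at 2.56 and 1.97 times. In dKO, where p53 is lost too, Cacna1c and Cacna1e were lower than in cKO, at 0.504 and 0.374 times its means, as were Cacna1a and Cacna1b at 0.427 and 0.392 times, and no alpha1 gene passed the test against control. The median gene moved in the same directions, and once that common shift was removed by median-ratio rescaling the fall of Cacna1e from cKO to dKO was the only alpha1 change past the threshold. That fall missed the threshold under median-shift centring, which removes the same shift on the log scale, and when genes of low level were tested with the rest.

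Only Cacna1c, Cacna1e, Cacna1g and Cacna1h reached a mean of 1 TPM and were tested among the 11764 genes. Cacna1c and Cacna1e passed this filter only through cKO. Their means in control, cKO and dKO were 1.18, 1.51 and 0.762 TPM for Cacna1c and 1.12, 2.17 and 0.812 TPM for Cacna1e. Counts that include these genes therefore depend on a filter that the cKO values decided. In cKO against control, 2 of these 4 were called higher by limma (Cacna1e and Cacna1g) and 0 lower, where 34.3% of all genes tested were called higher and 1.09% lower. After rescaling 0 of 4 were called and 1 had an unadjusted p under 0.05. Of all genes, 3.96% were called higher and 22.8% had such an unadjusted p. In dKO against cKO, 3 of 4 were called lower (Cacna1c, Cacna1e and Cacna1g), against 38.8% of all genes called lower and 0.612% higher. Rescaling left 1 of 4, Cacna1e, against 4.22%. Between dKO and control 0 of 4 were called with either scaling, and 1, Cacna1c, had an unadjusted p under 0.05. As deposited, 1.79% of all genes were called higher and 3.4% lower, and 20.1% had such an unadjusted p. After rescaling the shares were 3.95%, 5.05% and 24.8%. Against control, the median change of the 4 in cKO was 0.39 (0.25 for all genes), and from cKO to dKO it was -0.47 (-0.26 for all genes). After rescaling the members' medians were 0.18 and -0.26, beside values close to 0 for all genes. The cKO group is shared by these comparisons, so the rise and the fall are not independent of each other.

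The remaining members were tested in a fit without the filter, over the 39624 genes above 0 in at least 1 embryo. There, 4 of 8 members were called higher in cKO than in control (Cacna1a, Cacna1b, Cacna1e and Cacna1g) and 4 of 8 lower in dKO than in cKO (Cacna1a, Cacna1b, Cacna1c and Cacna1e). Of all genes in that fit, 11% were called higher in the first comparison and 14.5% lower in the second. Between dKO and control 0 of 8 were called (1 at an unadjusted p under 0.05), against 0.681% of genes called higher, 0.669% lower and 12.2% at such an unadjusted p. After rescaling, 0 of 8 members were called in any comparison of that fit, where 1.5% of genes were called higher in cKO than in control, 1.67% lower in dKO than in cKO, and 1.19% higher and 0.964% lower in dKO than in control. In those rescaled tests 3, 4 and 1 of 8 had an unadjusted p under 0.05 for cKO against control, dKO against cKO and dKO against control. The share of all genes at that p was not counted in this fit. In the rescaled fit with the filter it was 22.8%, 24.0% and 24.8% in the same order. Without any test, every cKO embryo was above every control embryo for 3 of 8 members (Cacna1a, Cacna1b and Cacna1e) and for 17.4% of all these genes. Every dKO embryo was below every cKO embryo for 4 of 8 (also Cacna1c) and for 17.2% of genes. After rescaling this held for 1 member in each case, Cacna1a among 7.12% of genes and Cacna1e among 6.24%. For Cacna1e the rescaled groups nearly touched, with cKO embryo 4 at 1.1708 TPM and dKO embryo 2 at 1.1701 TPM. Adjusted p-values below are from limma with Benjamini-Hochberg adjustment over all genes of the fit, with 4 embryos per group.

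**Figure D2:**
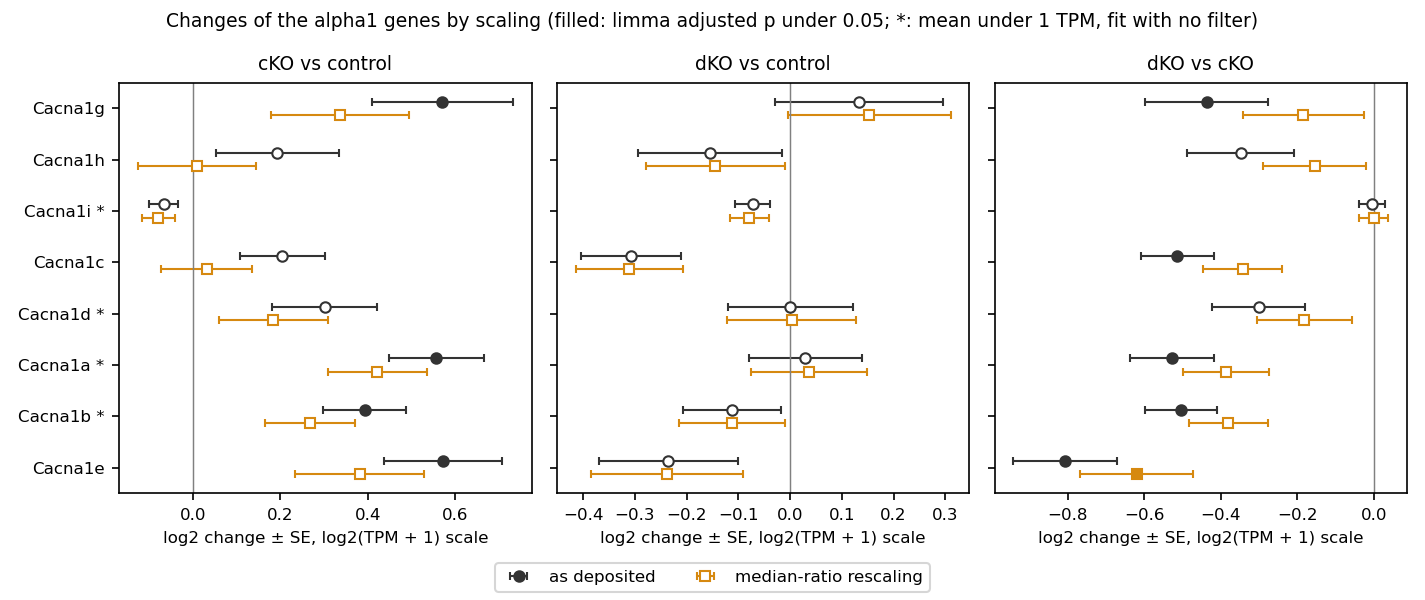
Log2 change ± SE on the log2(TPM + 1) scale (horizontal axes) of each alpha1 gene in the 3 comparisons, as deposited (circles) and after median-ratio rescaling (squares); filled symbols have an adjusted p under 0.05 in limma. Rescaling moves the cKO against control values of Cacna1e from 0.57 to 0.38 and of Cacna1g from 0.57 to 0.34, and a single filled square remains, Cacna1e in dKO against cKO.

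Among the Cav3, or T-type, channels, Cacna1g (chr11:94408391-94474198, minus strand, GRCm38) encodes Cav3.1 and was the most abundant alpha1 gene in every group. Control embryos 1 to 4 gave 3.26, 2.12, 1.79 and 2.56 TPM. In cKO it was 4.25, 3.19, 4.43 and 4.37 TPM, and in dKO 1.84, 3.59, 3.09 and 2.59 TPM. Embryo 2 of cKO fell within the range of control, and the dKO embryos spanned nearly the whole control range. The mean of cKO was 1.67 times that of control, with a log2 change of 0.57 ± 0.16 (SE, adjusted p = 0.0194 by limma), and 0.34 ± 0.16 (adjusted p = 0.229) after rescaling. In dKO Cacna1g was 0.44 ± 0.16 lower than in cKO (adjusted p = 0.0482), which became 0.18 ± 0.16 lower after rescaling (adjusted p = 0.507). The call against control was lost without control embryo 2 (adjusted p = 0.0544), control embryo 3 (0.0562) or cKO embryo 4 (0.0556) in the limma fit. The call against cKO was lost in 6 of 8 such omissions and in the fit without a filter (adjusted p = 0.103).

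Cacna1h (chr17:25374285-25433783, minus strand), the Cav3.2 gene, passed no test. Control embryos gave 1.78, 0.959, 1.58 and 1.5 TPM, cKO embryos 1.63, 2.06, 1.93 and 1.56 TPM, and dKO embryos 1.25, 1.70, 1.13 and 0.776 TPM. All 3 groups overlapped. Its log2 change from control to cKO was 0.19 ± 0.14 (adjusted p = 0.276 by limma) as deposited and 0.01 ± 0.13 after rescaling, and its sign turned under median-shift centring and quantile normalization. Between cKO and dKO it was -0.35 ± 0.14 (adjusted p = 0.0638), and this passed the threshold without dKO embryo 2 (adjusted p = 0.0239).

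Cacna1i (chr15:80287238-80398279, plus strand), the Cav3.3 gene, was scarcely present. It reached 0.0389, 0.151, 0.00808 and 0.0984 TPM in control, 0.0269, 0.00857, 0.0444 and 0.0168 TPM in cKO, and 0.0193, 0.0425, 0.00867 and 0.0104 TPM in dKO. The highest 2 values were control embryos, but another control embryo was the lowest of all 12. No difference passed the test (smallest adjusted p = 0.233, limma without filter).

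Among the Cav1, or L-type, channels, Cacna1c (chr6:118587240-119196418, minus strand) encodes Cav1.2, the main L-type channel of brain and heart. Control embryos had 1.10, 1.22, 1.08 and 1.30 TPM, and cKO embryos had 1.56, 1.58, 1.66 and 1.24 TPM. In dKO they were 0.640, 0.934, 0.877 and 0.596 TPM, so every dKO embryo was below every control and every cKO embryo. Groups that do not overlap in this direction between dKO and control were seen in 4.59% of the 39624 genes, and in 4.08% after rescaling, when Cacna1c still did not overlap. The mean of dKO was 0.648 times that of control. The log2 change from control to dKO was -0.31 ± 0.096 (adjusted p = 0.0882 by limma) as deposited and -0.31 ± 0.10 (adjusted p = 0.0858) after rescaling, so it did not pass the threshold with either scaling. From cKO to dKO it fell by 0.51 ± 0.096 (adjusted p = 0.00253), and the value after rescaling was -0.34 ± 0.10 (adjusted p = 0.0697). From control to cKO the change of 0.20 ± 0.096 (adjusted p = 0.11) shrank to 0.03 ± 0.10 after rescaling, and the sign turned under median-shift centring and quantile normalization.

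Cacna1d (chr14:30039939-30491455, minus strand), the Cav1.3 gene, whose channel opens at lower voltages than Cav1.2, was spread widely within cKO. It gave 0.286, 0.537, 0.465 and 0.426 TPM in control, 1.18, 0.716, 0.482 and 0.717 TPM in cKO, and 0.288, 0.653, 0.340 and 0.449 TPM in dKO. Embryo 1 of cKO was the highest of all, and embryo 3 of cKO lay inside the control range. No comparison passed the test. From control to cKO the log2 change was 0.30 ± 0.12 (adjusted p = 0.135, limma without filter), and 0.18 ± 0.13 after rescaling (adjusted p = 0.596).

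Among the Cav2 channels, Cacna1e (chr1:154390731-154884501, minus strand) encodes Cav2.3, the R-type channel. Control embryos stood at 0.965, 1.41, 0.988 and 1.13 TPM and cKO embryos at 2.12, 2.59, 2.44 and 1.54 TPM. The dKO embryos stood at 0.556, 1.12, 0.950 and 0.625 TPM. Every cKO embryo exceeded every control and dKO embryo, while dKO and control overlapped. The mean of cKO was 1.93 times that of control, a log2 change of 0.57 ± 0.13 (adjusted p = 0.00895 by limma), and 0.38 ± 0.15 after rescaling (adjusted p = 0.146). From cKO to dKO the change was -0.81 ± 0.13 (adjusted p = 0.00138). After rescaling it was -0.62 ± 0.15 (adjusted p = 0.0297), the one alpha1 call left by that rescaling. With both the rescaling and no filter the adjusted p was 0.054, and under median-shift centring the change was -0.54 (adjusted p = 0.0625). Against control, dKO differed by -0.24 ± 0.13 (adjusted p = 0.364). Both calls of Cacna1e as deposited were kept when each embryo was left out in turn.

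Cacna1a (chr8:84388440-84640246, plus strand) encodes Cav2.1, the P/Q-type channel of most central synapses. It had the narrowest control range of the family, at 0.481, 0.405, 0.407 and 0.458 TPM. In cKO it reached 1.08, 0.868, 1.38 and 1.17 TPM, above all control and all dKO embryos. In dKO it varied from embryo to embryo, with 0.505, 0.769, 0.414 and 0.231 TPM on both sides of the control range. The cKO mean was 2.56 times the control mean, the largest ratio among the 8. The log2 change from control to cKO was 0.56 ± 0.11 (adjusted p = 0.0095, limma without filter) and 0.42 ± 0.11 after rescaling (adjusted p = 0.0894). When libraries were instead scaled to an equal sum of protein-coding genes, it was 0.49 (adjusted p = 0.0408). Cacna1a was the only alpha1 gene whose cKO embryos all stayed above control after median-ratio rescaling, which held for 7.12% of the 39624 genes. The change from cKO to dKO was -0.53 ± 0.11 (adjusted p = 0.00968) as deposited and -0.39 ± 0.11 (adjusted p = 0.103) after rescaling.

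Cacna1b (chr2:24603887-24763152, minus strand) encodes Cav2.2, the N-type channel of presynaptic terminals. Control embryos gave 0.519, 0.499, 0.369 and 0.548 TPM, cKO embryos 1.18, 1.03, 0.966 and 0.645 TPM, and dKO embryos 0.264, 0.499, 0.409 and 0.326 TPM. Every cKO embryo was above the other groups, with embryo 4 the closest to them. The log2 change from control to cKO was 0.39 ± 0.095 (adjusted p = 0.0235, limma without filter), and 0.27 ± 0.10 after rescaling (adjusted p = 0.254). The first call was lost without control embryo 2 (adjusted p = 0.0516), control embryo 3 (0.0683) or cKO embryo 2 (0.0608). From cKO to dKO the change was -0.50 ± 0.095 (adjusted p = 0.00655) and -0.38 ± 0.10 after rescaling (adjusted p = 0.0838).

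Each member's share of the summed TPM of the 8 genes does not depend on the scaling of a library, and was used to describe the make-up of the family without a test. The share of Cacna1a was 5.76% ± 0.222 for control, 9.05% ± 1.58 for cKO and 6.88% ± 2.40 for dKO embryos (SD, 4 per group), and the cKO range of 7.21% to 10.4% lay above the control range of 5.56% to 6.08%. For Cacna1c the shares were 15.5% ± 1.70, 12.1% ± 0.898 and 11.2% ± 1.02 in the same order, and its dKO range of 10.03% to 12.1% lay below the 13% to 16.7% of control. Cacna1e held 14.9% ± 3.25, 17.4% ± 3.31 and 11.7% ± 1.19 in the same order, and its dKO embryos lay below all cKO embryos. Cacna1g held the largest share in every embryo, 31.6% ± 5.18 in control, 32.8% ± 5.04 in cKO and 40.5% ± 5.18 in dKO, with overlapping ranges. Cacna1b, Cacna1d, Cacna1h and Cacna1i overlapped in every pair of groups.

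By class, the 3 Cav2 genes together made up 27.0% ± 3.46 of the sum in control, 34.1% ± 3.26 in cKO and 24.0% ± 2.00 in dKO. All cKO embryos (29.8% to 37.3%) were above all dKO embryos (21.1% to 25.6%), while cKO and control overlapped. The 3 Cav3 genes made up 51.7% ± 6.59, 47.5% ± 4.01 and 58.5% ± 1.27, so that the dKO embryos (57.3% to 60.3%) lay above those of cKO (43.6% to 52.8%). Class shares add up to the whole, so a larger share of one class goes with a smaller share of others. The means of Cacna1g, Cacna1h and Cacna1i were themselves lower in dKO, at 0.684, 0.677 and 0.837 times those of cKO. The 2 Cav1 genes accounted for 21.3% ± 3.41, 18.4% ± 2.16 and 17.5% ± 0.804.

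**Figure D3:**
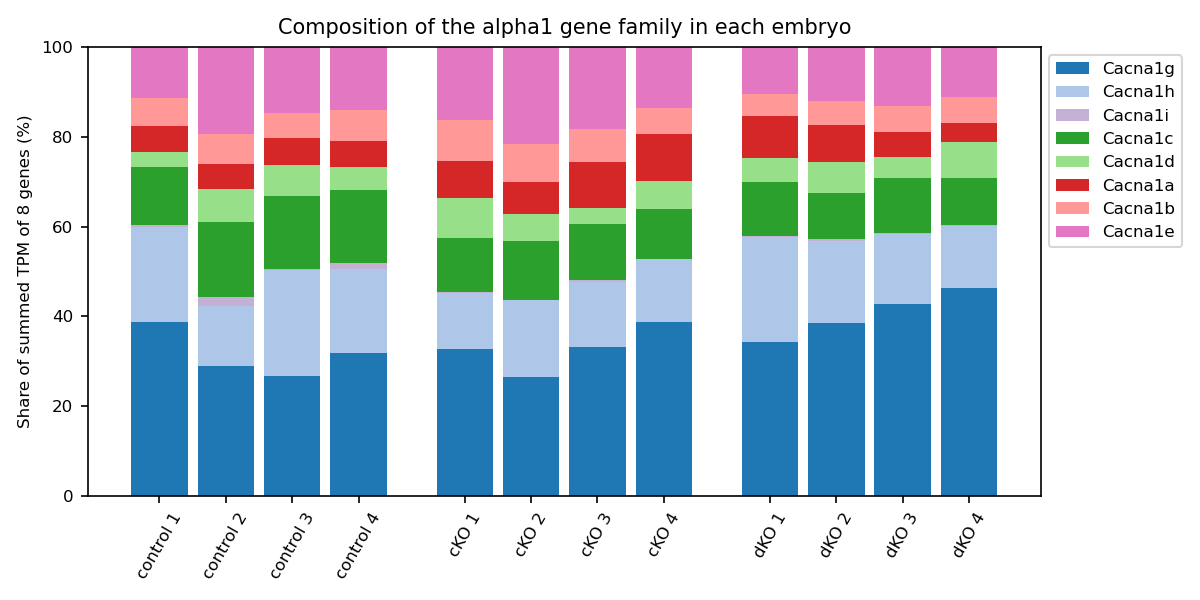
Share of the summed TPM of the 8 alpha1 genes (vertical axis, percent) in each of the 12 embryos, stacked by gene with the Cav3 genes at the bottom, the Cav1 genes in the middle and the Cav2 genes on top. The Cav2 part is wider in each cKO embryo (29.8% to 37.3%) than in any dKO embryo (21.1% to 25.6%).

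Most alpha1 genes of the brain act in neurons, and neuron markers moved between the groups in the same directions. The 15 neuron markers summed to 277 to 305 TPM for control, 378 to 461 TPM for cKO and 199 to 302 TPM for dKO embryos, and none was at 0. Of the 14 tested, 10 were called higher in cKO than in control by limma (1 after rescaling), where 34.3% of all tested genes were (3.96% after rescaling). In dKO against cKO, 12 of 14 were called lower (4 after rescaling), where 38.8% of all genes were (4.22% after rescaling). Gap43, a growth cone protein, had a log2 change of 1.01 from control to cKO (adjusted p = 0.00019) and 0.71 after rescaling (adjusted p = 0.00702). In bulk tissue, fewer cells of a type and less RNA per cell cannot be told apart. The part of neuron content in the alpha1 changes was not tested, but levels were also expressed per 1000 TPM of the summed neuron markers, a measure chosen after the values were seen. On that measure Cacna1a was 1.49 ± 0.192 in control and 2.76 ± 0.726 in cKO, and the ranges of 1.33 to 1.74 and 1.88 to 3.64 did not overlap. Cacna1e had 3.80 ± 0.615 for control, 5.26 ± 1.10 for cKO and 3.20 ± 0.692 for dKO, with overlapping ranges between control and cKO. In dKO Cacna1a was 1.92 ± 0.787, and its range of 0.904 to 2.55 overlapped both control and cKO. The 7 members other than Cacna1a overlapped in every pair of groups on this measure. The share of all genes without overlap was not counted for it.

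Markers of other cells also differed. Microglia markers (8 genes) summed to 12.1 to 15.4 TPM for control, 48.0 to 69.0 TPM for cKO and 15 to 19.9 TPM for dKO, and every cKO embryo was above every control embryo for 7 of 8 with either scaling, as for 17.4% of all genes above 0 (7.12% after rescaling). Mural and endothelial markers (10 genes) summed to 10.9 to 14.4, 21.9 to 29.1 and 14.9 to 22.1 TPM, and 8 of 10 were separated from control in this way with either scaling. Cajal-Retzius markers, led by Reln, summed to 15.8 to 22.6, 37.1 to 43.8 and 19.0 to 29.2 TPM, and interneuron markers to 1.78 to 2.52, 3.71 to 5.46 and 1.69 to 3.74 TPM. In cKO, 5 of 6 Cajal-Retzius markers were separated from control in this way as deposited and 4 of 6 after rescaling. For interneuron markers it was 4 of 8 as deposited and 0 of 8 after rescaling. Radial glia markers summed to 278 to 311, 323 to 385 and 298 to 309 TPM, and Fabp7 alone averaged 109 TPM in control and 149 TPM in cKO. Only 4 of 10 radial glia markers had a positive change in cKO against control as deposited, with a median of -0.0046. After rescaling 0 of 10 were called higher and 2 lower, where 849 of the 11764 genes were called in either direction. Intermediate progenitor markers summed to 79.5 to 90.2, 72.6 to 93.7 and 63.3 to 80.0 TPM. As deposited, 1 of 7 was called higher in cKO than in control and 1 lower, where 34.3% and 1.09% of all tested genes were. After rescaling 0 of 7 were called higher and 3 lower, beside the same 849 genes called in either direction. In dKO against control 2 of 7 were called lower with either scaling, where 3.4% of all tested genes were (5.05% after rescaling). Erythroid markers overlapped in all groups, at 1651 to 2656 TPM. Radial glia, intermediate progenitor and neuron markers were all present, as in embryonic pallium. L-type and T-type genes are also used by vessel cells, and the part of any of these cell types in the alpha1 values was not tested.

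The accessory subunits travel with Cav1 and Cav2 pores. Of 16 genes listed, 7 reached a mean of 1 TPM. Cacna2d2 was among them only through cKO, with means of 0.906, 1.33 and 0.846 TPM in control, cKO and dKO. In cKO against control, 2 of 7 were called higher by limma, where 34.3% of all tested genes were, with a median of 0.31 beside 0.25 for all genes. In dKO against cKO, 5 of 7 were called lower, where 38.8% of all genes were, with a median of -0.48 beside -0.26. After rescaling 1 of 7 and 2 of 7 were called, against 3.96% and 4.22% of all genes, with medians of 0.13 and -0.26. Between dKO and control 0 of 7 were called with either scaling, and 2 had an unadjusted p under 0.05. Such a p was found for 20.1% of all genes as deposited and 24.8% after rescaling. The called genes in cKO were alpha2delta subunits, which bring channels to the membrane and bind extracellular partners.

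Cacna2d1 gave 6.01, 6.49, 6.33 and 6.50 TPM for control embryos, and for cKO embryos 9.0, 13.6, 12.5 and 9.19 TPM. In dKO it was 4.72, 4.92, 5.20 and 4.53 TPM. All 3 groups were separate, with dKO lowest, and they remained separate between dKO and both other groups after rescaling. Its log2 change was 0.70 ± 0.12 from control to cKO (adjusted p = 0.00172, limma) and -1.03 ± 0.12 from cKO to dKO (adjusted p = 0.000175). After rescaling the values were 0.42 ± 0.13 (adjusted p = 0.0682) and -0.74 ± 0.13 (adjusted p = 0.00763). From control to dKO it was -0.33 ± 0.12 (adjusted p = 0.127), short of the threshold.

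Cacna2d3 stood at 1.70, 2.32, 1.73 and 2.08 TPM in control, 4.10, 4.72, 4.50 and 3.52 TPM in cKO, and 1.25, 1.64, 2.25 and 1.51 TPM in dKO. Every cKO embryo was above the rest. It rose by 0.82 ± 0.12 from control to cKO (adjusted p = 0.00091, limma) and by 0.58 ± 0.14 after rescaling (adjusted p = 0.0253). From cKO to dKO it fell by 0.97 ± 0.12 (adjusted p = 0.000273) and by 0.73 ± 0.14 after rescaling (adjusted p = 0.0105). Per 1000 TPM of neuron markers, every cKO embryo was above every control embryo for Cacna2d3 and also for the scarce Cacng2 and Cacng3. The other accessory subunits overlapped between cKO and control on that measure. Between dKO and cKO only Cacnb2 was separated, with dKO higher. The share of all genes was not counted for this measure.

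The beta subunits bind the intracellular side of Cav1 and Cav2 pores and carry them to the membrane. In dKO against cKO, 2 of 2 tested were called lower, where 38.8% of all tested genes were. After rescaling 0 of 2 were called, where 4.22% of all genes were called lower. Cacnb3 had means of 3.64, 4.39 and 2.63 TPM in control, cKO and dKO, with a change from cKO to dKO of -0.59 ± 0.14 (adjusted p = 0.00844, limma) that was -0.33 ± 0.13 after rescaling (adjusted p = 0.153). Cacnb1 had means of 1.63, 2.37 and 1.41 TPM and a change of -0.48 ± 0.13 in that comparison (adjusted p = 0.0159, and 0.199 after rescaling). Cacnb4, below the filter, had means of 0.691, 1.49 and 0.664 TPM and log2 changes of 0.55 ± 0.14 from control to cKO (adjusted p = 0.0331, limma without filter) and -0.57 ± 0.14 from cKO to dKO (adjusted p = 0.0232), neither of which passed after rescaling (adjusted p = 0.304 and 0.237). Of the gamma family, whose brain members mostly serve AMPA receptors, Cacng4 was the most abundant at 6.17, 7.77 and 6.37 TPM and passed no test, and Cacng7 was called lower in dKO than in cKO as deposited (-0.30 ± 0.098, adjusted p = 0.0294) but not after rescaling (-0.08, adjusted p = 0.629).

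**Figure D4:**
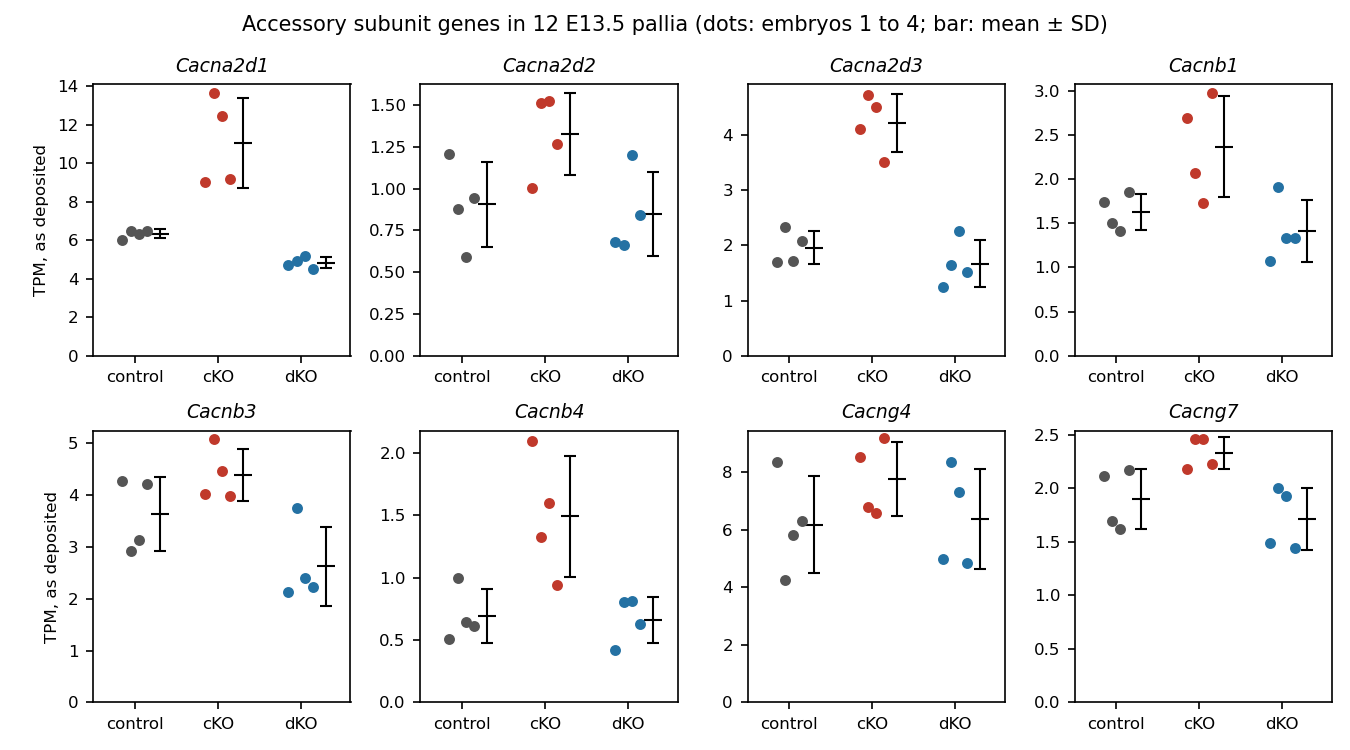
TPM as deposited (vertical axes, linear and starting at 0) of 8 accessory subunit genes in control, cKO and dKO embryos; each dot is 1 embryo and the bar gives the mean ± SD of 4. Cacna2d1 forms 3 separate groups, and Cacna2d3 is higher in every cKO embryo than in the other groups.

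Other genes of calcium signalling were described in the same way, and their counts stand beside 34.3% of all tested genes called higher in cKO than in control. Among channel partners, Calm3 and Cabp1, calcium sensors that bind the pore, were called higher in cKO than in control as deposited and not after rescaling. Among the genes of calcium release and store entry, 2 of 3 were called higher. Orai2, a store-operated channel, rose by 0.68 (adjusted p = 0.000544, limma) and by 0.45 after rescaling (adjusted p = 0.00973), whereas Itpr1, the inositol trisphosphate receptor, rose by 0.74 (adjusted p = 0.0122) as deposited and had an adjusted p of 0.14 after rescaling. Calcium clearance had 2 of 5 called, the exchanger Slc8a1 and the pump Atp2b1, each with a log2 change of 0.61, and calcium-responsive transcription had 1 of 3, Camk2b, at 0.72. None of these 3 was called in cKO against control after rescaling. The RGK inhibitors, small GTPases that block high-voltage channels, and the sodium leak channel genes had no gene at a mean of 1 TPM. Their most abundant genes, Gem and Nalcn, averaged 0.568 and 0.613 TPM for control, 0.514 and 1.18 TPM for cKO, and 0.464 and 1.03 TPM for dKO.

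Among the 4 tested members, Cacna1c and Cacna1e varied most alike over the 12 embryos, with a Pearson correlation of log2(TPM + 1) of 0.93, and the other 5 pairs lay between 0.50 and 0.70. The gene most like Cacna1c among all tested was Sox5, with a correlation of 0.989, followed by Cnksr2 at 0.961. Sox5, a transcription factor of deep-layer projection neurons, averaged 19.5 ± 1.72, 25.8 ± 4.80 and 12.8 ± 2.71 TPM in control, cKO and dKO embryos. For Cacna1e the most alike were Lrfn5 and Gria3, a synaptic adhesion protein and an AMPA receptor subunit, both at 0.972. For Cacna1g they were Ablim1 (0.967) and Cdk2ap2 (0.947), and for Cacna1h Pmepa1 and Rtn4 (both 0.893). These correlations are descriptions over 12 libraries in 3 groups that share the differences in scaling, and were picked as the highest of 11764 genes.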

How the data were processed

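Deposited values were read from 12 tables, 1 per embryo, of gene symbols with TPM. The unit was inferred from the values deposited by the authors, which sum to 1000000, since no header names it. Libraries were stranded total RNA, per the labels' protocols. HISAT2 and mm10 are named in the submitters' processing notes; the quantifier, the annotation and the handling of shared or intronic reads are not given in the sources used here. Groups came from the genotype labels. Of 54735 symbols, 54106 were in GENCODE M21 (GRCm38), which gave coordinates.

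Log2(TPM + 1) was fitted in limma 3.58.1 (R 4.3.3; lmFit, eBayes with trend) over the 11764 genes that averaged 1 TPM or more, all groups in 1 fit; an adjusted p under 0.05 was called. This scale understates changes of low genes. Members below the filter were fitted with no filter. Targeted genes had exact permutation tests over 70 assignments. Named genes were all members, the targeted genes, up to 4 called genes per list with the largest change against control (else the most abundant), and the 2 genes most correlated with each tested member; other accessory subunits were named after their values were seen. A channel partner that this rule names is not reported here. Members and lists were chosen with earlier results of these data known. Median-ratio rescaling (factors 0.763 to 1.14), its use without the filter and levels per neuron marker were chosen after seeing the data. Same-numbered embryos deviated together with correlations of -0.0954 to 0.0745, so numbers did not pair them. The fit was tested on simulated data. Protein motifs and minor introns were not analysed here.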

Additional observations from a re-analysis of the deposited data

Results flagged for a closer look

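Cacna1g in cKO embryo 2 stood apart from the other cKO embryos, at 3.19 TPM beside 4.25 to 4.43 TPM. The gap to its neighbour was 0.857 of the range of the group, above the limit of Dixon's test for 4 samples. Of 36 groups examined in this way, 1 was marked, and chance would mark 1.8.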

How the results depend on the processing

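Of the 4 alpha1 genes tested, 2 were called in cKO against control as deposited. The count was 0 under median-shift centring, median-ratio rescaling, protein-coding rescaling and quantile normalization. With no filter all 8 were tested and 4 were called, Cacna1a and Cacna1b beside the same 2. Of all genes, 34.3% were called higher as deposited, 3.96% after median-ratio rescaling and 11% with no filter. With the filter, leaving out 1 embryo gave 1 to 2, with 1 without control embryo 2, control embryo 3 or cKO embryo 4. In dKO against cKO (3 of 4) the count was 0 under centring and 1 under median-ratio rescaling and quantile normalization, and leaving out 1 embryo gave 2 to 4. For accessory subunits in cKO against control (2 of 7) it was 1 under centring, median-ratio rescaling, quantile normalization and a mean of at least 5 TPM. In dKO against control (0 of 7) it was 1 in a fit of 2 groups only, and leaving out 1 embryo gave 0 to 1, with 1 without dKO embryo 2. In dKO against cKO (5 of 7) it was 2 under centring, median-ratio, protein-coding and quantile scaling and 1 at a mean of at least 5 TPM, and leaving out 1 embryo gave 4 to 6. No alpha1 gene reached 5 TPM, so that filter gave them no value. The cause of these shifts was not tested.

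Signs turned for Cacna1c (-0.0445 under centring, -0.0684 under quantile normalization) and Cacna1h (-0.0559 and -0.0729) in cKO against control. They also turned for Cacna1d in dKO against control (-0.0036 under quantile normalization, -0.0128 with a pseudocount of 0.1, both without filter) and for Cacna1i in dKO against cKO (0.00022 under median-ratio rescaling, 0.0115 under quantile normalization). Leaving out 1 embryo moved Cacna1a in dKO against control over -0.0605 to 0.11, Cacna1d over -0.0708 to 0.0492 (below 0 without control embryo 1, -0.0491, dKO embryo 2, -0.0708, or dKO embryo 4, -0.00727), and Cacna1i in dKO against cKO over -0.02 to 0.0039. Trp53 in cKO against control, 0.18 as deposited, was -0.0697 under centring and -0.10 under quantile normalization, and 0.0631 to 0.40 when 1 embryo was left out (0.40 without control embryo 1, exact permutation p = 0.0286). With the replicate number as a block, 2 alpha1 genes were called in cKO against control and 2 in dKO against cKO, where Cacna1g lost its call (adjusted p = 0.0937 by limma), as did Cacna1b in cKO against control without filter (adjusted p = 0.0565). The block called 2 accessory subunits in cKO against control and 4 in dKO against cKO. All 24 mean shares of the members stayed within 1 SD when Cacna1f and Cacna1s were added to the sum. The unknown depth leaves the counting error of genes under 1 TPM unmeasured.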
